A study of Mus musculus with 24 samples.

Results

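The interval from zeitgeber time (ZT, hours after lights on) 10 to 14 was examined in mouse liver with and without the clock gene Arntl (also called Bmal1) in hepatocytes. It was defined by the sampling times alone, ZT14 against ZT10, and holds 8 of the 24 liver libraries of the study, 2 for each genotype and time. HepKO mice carried Alb::Cre_+/0 and Bmal1_fl/fl: Cre recombinase stands under the albumin promoter, which is active in hepatocytes, so Arntl is kept in the other cells of the liver. HepWT mice were Alb::Cre_0/0 and Bmal1_fl/fl, which means that the floxed alleles were shared by both groups and only the Cre transgene differed. All animals were C57BL/6, 8-12 weeks old, and on night restricted feeding. The labels do not state the hours of lights and food, and under this regimen the onset of darkness and the onset of feeding cannot be told apart. Nor do they state whether each library is a separate animal: every p-value here refers to the spread between these samples, which may be technical.

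Liver gene expression follows the day through several routes. A transcriptional clock, in which ARNTL with CLOCK or NPAS2 activates the PER, CRY and REV-ERB repressors, runs inside each cell. Feeding acts through insulin and nutrients, body temperature acts through heat shock factors, and nervous and hormonal signals from the brain's clock reach the liver at the same hours. In nocturnal rodents food intake and body temperature both rise in the evening, and the protein-secreting hepatocyte then turns to storing nutrients and making protein.

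Total counts of the 8 libraries were 15515228 to 30677807, and the 2 lowest belonged to HepKO replicate 2 (15515228 at ZT10 and 16910415 at ZT14). Between the 2 libraries of a group the chi-square of the counts over genes was 8.42 to 45.1 per degree of freedom, far above counting error. It is summed over all genes, so it does not show what limits the precision of a gene with few counts. Levels are given as CPM, depth-scaled counts with TMM (trimmed mean of M values) library factors, and changes as fitted log2 ratios of ZT14 to ZT10 with their standard error (SE). Arntl itself (ENSMUSG00000055116, chromosome 7, 113207465 to 113314126, GRCm38) stood at 1.27 and 1.40 CPM in HepWT at ZT10 and at 4.90 and 2.93 CPM at ZT14. HepKO libraries held 11.9 and 10.3 CPM and then 10.4 and 12.0 CPM. These counts cover the whole gene, with exons outside the floxed part and RNA of other cell types, so they do not check the deletion. Markers of hepatocytes summed to 58760 to 71590 CPM in the 8 libraries, and all 12 of them were tested.

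Between ZT10 and ZT14, 1704 genes rose and 1328 fell at an adjusted p below 0.05 when both genotypes were fitted together (edgeR's quasi-likelihood test, Benjamini-Hochberg adjustment over 17275 genes). That is 9.86% of tested genes higher and 7.69% lower. In 86.3% of the higher and 85.9% of the lower calls the ZT10 and ZT14 libraries did not overlap in either genotype. The calls came from the same values, so this is no separate support. The same share over all tested genes was not counted. At least 2-fold changes were 247 of the rises and 196 of the falls. The median log2 change of all genes was -0.01, which is the base for the medians of gene lists below. The shares of 9.86% and 7.69% are likewise the base for the joint counts of gene lists and markers. Within HepWT the shares of all tested genes were 6.36% higher and 5% lower, and within HepKO 3.48% and 2.18%.

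ZT10 to ZT14 was the 4 h step of the day with the most calls. In both genotypes together it took in 17.6% of tested genes (3032), against 11.6% (2006) from ZT14 to ZT18, 2.05% (355) from ZT6 to ZT10, 1.97% (340) from ZT22 to ZT2, 1.22% (211) from ZT18 to ZT22 and 1.01% (175) from ZT2 to ZT6. Within HepWT the steps in order from ZT2 to ZT6 through ZT22 to ZT2 gave 0.394%, 3.09%, 11.4%, 5.19%, 0.376% and 1.01%. The same steps within HepKO gave 0.00579%, 0.0116%, 5.67%, 1.86%, 0.0174% and 0% (0 genes from ZT22 to ZT2). In both genotypes together 207 genes rose and 148 fell from ZT6 to ZT10, 919 and 1087 from ZT14 to ZT18, and 96 and 115 from ZT18 to ZT22. These counts, of 17275 tested genes, are the base for the step counts of gene lists below. Neighbouring steps share libraries and are not independent. The number of calls also depended on single libraries: the HepWT count of 1963 was 790 without ZT10 replicate 1, 964 without ZT10 replicate 2 and 820 without ZT14 replicate 2, and the HepKO count of 979 was 235, 222 and 439 without ZT10 replicate 1, ZT10 replicate 2 or ZT14 replicate 1. The joint count was 1646 with HepWT replicate 1 libraries alone on the HepWT side.

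**Figure D1:**
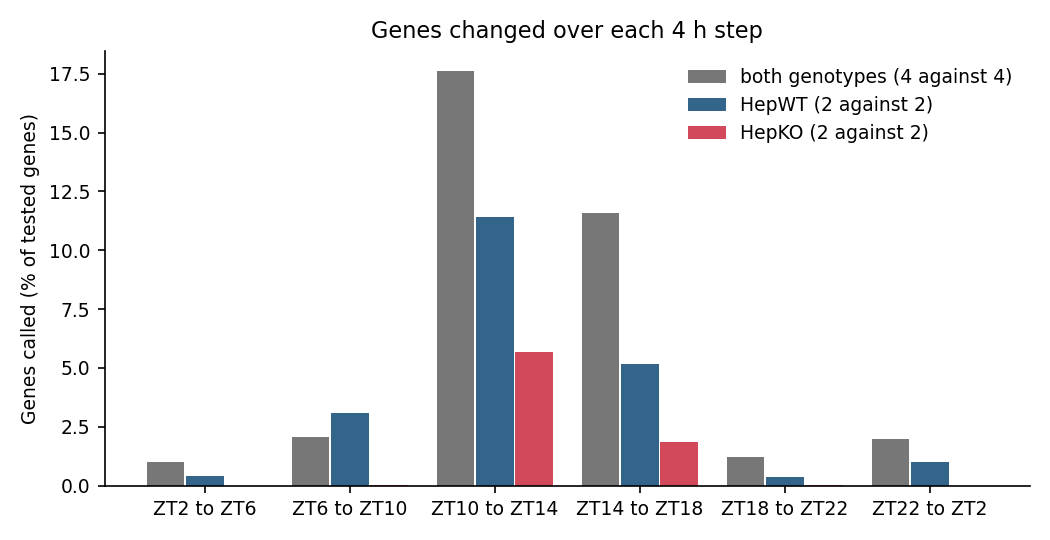
Share of the 17275 tested genes called over each 4 h step of the day (vertical axis, % of tested genes; horizontal axis, step), for both genotypes together, HepWT and HepKO. The bars of ZT10 to ZT14 are the highest of each series, at 17.6%, 11.4% and 5.67%.

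Chaperones were the clearest group of rising genes. Of 26 genes of the heat shock and cytosolic chaperone list, 20 rose and 0 fell, against 9.86% of all genes higher, with a median log2 change of 0.76. Within HepWT 18 rose and within HepKO 18 rose, and the medians were 0.80 and 0.78. Across all alternatives 18 to 21 members rose in the joint fit, while the count within HepKO was 6 without HepKO ZT10 replicate 2 and the count within HepWT was 6 with HepWT replicate 1 alone. The list includes Hspa1b and Hspa1a, which encode the inducible HSP70 and are near-identical copies whose reads can be shared.

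Hspa1b (ENSMUSG00000090877, chromosome 17, 34956436 to 34959238, GRCm38) read 4.39 and 4.13 CPM at ZT10 and 69.0 and 57.3 CPM at ZT14 in HepWT. In HepKO it read 7.88 and 7.71 CPM and then 80.2 and 70.1 CPM. All 4 ZT14 libraries were above all 4 ZT10 libraries, an 11.9-fold rise (log2 3.58 ± 0.32 SE, adjusted p = 2.02e-06). Hspa1a went from 0.290 and 0.166 to 4.99 and 4.13 CPM in HepWT and from 0.606 and 1.04 to 7.88 and 11.7 CPM in HepKO (log2 3.96 ± 0.31, adjusted p = 8.01e-07). Hsph1, an HSP110 that recharges HSP70 with nucleotide, rose from 20.5 and 20.1 to 126 and 131 CPM in HepWT. Its HepKO libraries went from 37.0 and 27.9 to 124 and 107 CPM, and the joint log2 change was 2.24 ± 0.30 (adjusted p = 5.74e-05). The stress-induced HSP90 gene Hsp90aa1 moved from 78.4 and 81.2 to 259 and 297 CPM in HepWT and from 121 and 105 to 346 and 262 CPM in HepKO (log2 1.61 ± 0.15, adjusted p = 2.48e-06). Bag3, a co-chaperone of HSP70, rose by 1.99 ± 0.18 on the log2 scale. Hspa8, the constitutive HSP70, rose by 1.29 ± 0.19, from 554 to 783 CPM over the ZT10 libraries to 1465 to 1690 CPM over the ZT14 libraries. In these 6 genes every ZT14 library was above every ZT10 library. The 6 members that did not pass were St13, Hspa4, Hspbp1, Hspd1, Hsf1 and Hspb1, the last with a log2 change of 1.11 (adjusted p = 0.0604).

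The high level of Hspa1b was brief. At ZT18 it had come down to 26.2 and 12.1 CPM in HepWT and to 29.6 and 17.8 CPM in HepKO, and at ZT22 it read 9.05 and 4.13 CPM in HepWT and 7.79 and 6.10 CPM in HepKO. Of the chaperone list, 0 members rose and 1 fell from ZT6 to ZT10, 7 rose and 4 fell from ZT14 to ZT18, and 0 rose and 8 fell from ZT18 to ZT22. Cirbp, which encodes a cold-induced RNA-binding protein, moved in the opposite direction from ZT10 to ZT14 and then stayed low. It fell from 15.9 and 14.8 to 7.66 and 6.61 CPM in HepWT and from 18.5 and 20.5 to 7.05 and 8.03 CPM in HepKO (log2 -1.24 ± 0.17, adjusted p = 9.43e-05), and its 8 libraries at ZT18 and ZT22 held 5.50 to 9.17 CPM. Rbm3, the other cold-induced gene listed, had a log2 change of 0.03 (adjusted p = 0.879).

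The promoter windows of the chaperone list, risen or not, were searched for the heat shock element, the known binding site of heat shock factors. The window ran from 250 bases before to 50 bases after each RefSeq start, both strands were read, and 11407 of 17182 tested symbols had a window. A gene with several starts was counted once, as a match if any of its windows matched. The letters of the element, GAANNTTC, stood in 12 of 21 genes of the chaperone list that had a window (57.1%). The shares were 7.21% of all genes with a window, 7.6% of those that rose and 7.09% of those that fell. Of the matching stretches 2 are shown with 35 bases on each side. Both are from the minus strand and read 5′ to 3′ from the RefSeq table of GRCm38.p6. The first belongs to Hspa1b, at chr17:34959300-34959377, with the element 104 to 97 bases before the start. The other belongs to Rcan1, a calcineurin regulator outside the list that was among the largest rises, at chr16:92466234-92466311, with the element 107 to 100 bases before one of its starts. The same Rcan1 window also held the E-box letters, CACGTG. A window of another Rcan1 start held those of the cAMP element, TGACGTCA. Binding was not measured. Capitals mark the fixed letters of the heat shock element.
Hspa1b: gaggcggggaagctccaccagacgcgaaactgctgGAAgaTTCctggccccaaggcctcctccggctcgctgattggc
Rcan1: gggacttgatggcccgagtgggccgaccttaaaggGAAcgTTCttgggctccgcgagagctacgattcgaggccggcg

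Rcan1 stood at 14 and 15.7 CPM and then at 65.2 and 110 CPM in HepWT, and at 15.2 and 24 CPM and then at 81.6 and 47.8 CPM in HepKO. The lowest ZT14 library was above the highest ZT10 library (log2 2.15 ± 0.21, adjusted p = 3.86e-06).

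Genes of protein folding in the endoplasmic reticulum (ER) rose as well. Of 27 genes of ER folding and the unfolded protein response, 20 rose and 0 fell, with a median log2 change of 0.62 (0.58 in HepWT and 0.74 in HepKO). Within HepWT 16 rose and within HepKO 19 rose, counts that were 5 with HepWT replicate 1 alone and 4 with HepKO replicate 1 alone. From ZT6 to ZT10 0 members rose and 1 fell, and from ZT14 to ZT18 1 rose and 4 fell.

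Creld2 (ENSMUSG00000023272, chromosome 15, 88819646 to 88826683, GRCm38), which encodes an ER folding protein, gave 18.6 and 21.4 CPM at ZT10 and 140 and 188 CPM at ZT14 in HepWT. In HepKO it gave 23.6 and 16.7 CPM and then 118 and 126 CPM, a joint rise of 7.02-fold (log2 2.81 ± 0.30, adjusted p = 9.19e-06). It was still at 118 and 138 CPM at ZT18 in HepWT. Syvn1, the ubiquitin ligase that marks misfolded ER proteins for degradation, moved from 19.6 and 21.8 to 121 and 107 CPM in HepWT and from 24.5 and 29.1 to 73.2 and 113 CPM in HepKO (log2 2.13 ± 0.22, adjusted p = 8.12e-06). Derl3, of the channel that exports such proteins, went from 2.83 and 0.998 to 4.70 and 8.34 CPM in HepWT and from 0.303 and 0.713 to 3.41 and 3.61 CPM in HepKO (log2 2.33 ± 0.38). The central ER chaperone Hspa5, also called BiP, rose from 533 and 608 to 1698 and 2045 CPM in HepWT. In HepKO Hspa5 rose from 682 and 552 to 1847 and 1727 CPM, and the joint log2 change was 1.62 ± 0.20 (adjusted p = 2.71e-05). None of these 4 genes overlapped between the times. Rises on the log2 scale were also called for Manf (1.71), Sdf2l1 (1.60), Hyou1 (1.49) and Hsp90b1 (0.85), and the transcription factor Ddit3, or CHOP, rose by 1.74. Xbp1, which encodes the spliced transcription factor of this response, did not pass (0.30, adjusted p = 0.283), nor did Atf6, Ern1, Derl1, Derl2, Canx and P4hb. Of 18 ATF4 target genes 1 rose and 1 fell, beside 9.86% of all genes higher and 7.69% lower.

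The ER stress element was examined in the same windows after the values had been seen. It was searched as CCAAT and CCACG in this order, separated by 9 bases, on either strand. Counted by gene as before, it stood in 9 of 23 genes of the ER list that had a window (39.1%). The shares were 0.193% of all genes with a window (22 of them), 0.82% of the rising and 0.0958% of the falling genes. Of the matches in the ER list, 3 are shown, read 5′ to 3′ on the plus strand, with the fixed letters in capitals (a reverse match reads CGTGG and then ATTGG). Creld2 lies at chr15:88819485-88819573 with the element 126 to 108 bases before the start. Syvn1 lies at chr19:6046497-6046575 with the element 44 to 26 bases before the start. Derl3 lies at chr10:75893207-75893295 with the element 156 to 138 bases before the start. A match describes the letters only, and binding was not measured.
Creld2: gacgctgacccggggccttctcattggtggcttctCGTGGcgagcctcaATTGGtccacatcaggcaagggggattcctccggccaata
Syvn1: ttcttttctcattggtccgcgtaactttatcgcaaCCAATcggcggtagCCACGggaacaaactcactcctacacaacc
Derl3: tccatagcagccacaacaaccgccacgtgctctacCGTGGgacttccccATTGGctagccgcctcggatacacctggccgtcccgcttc

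**Figure D2:**
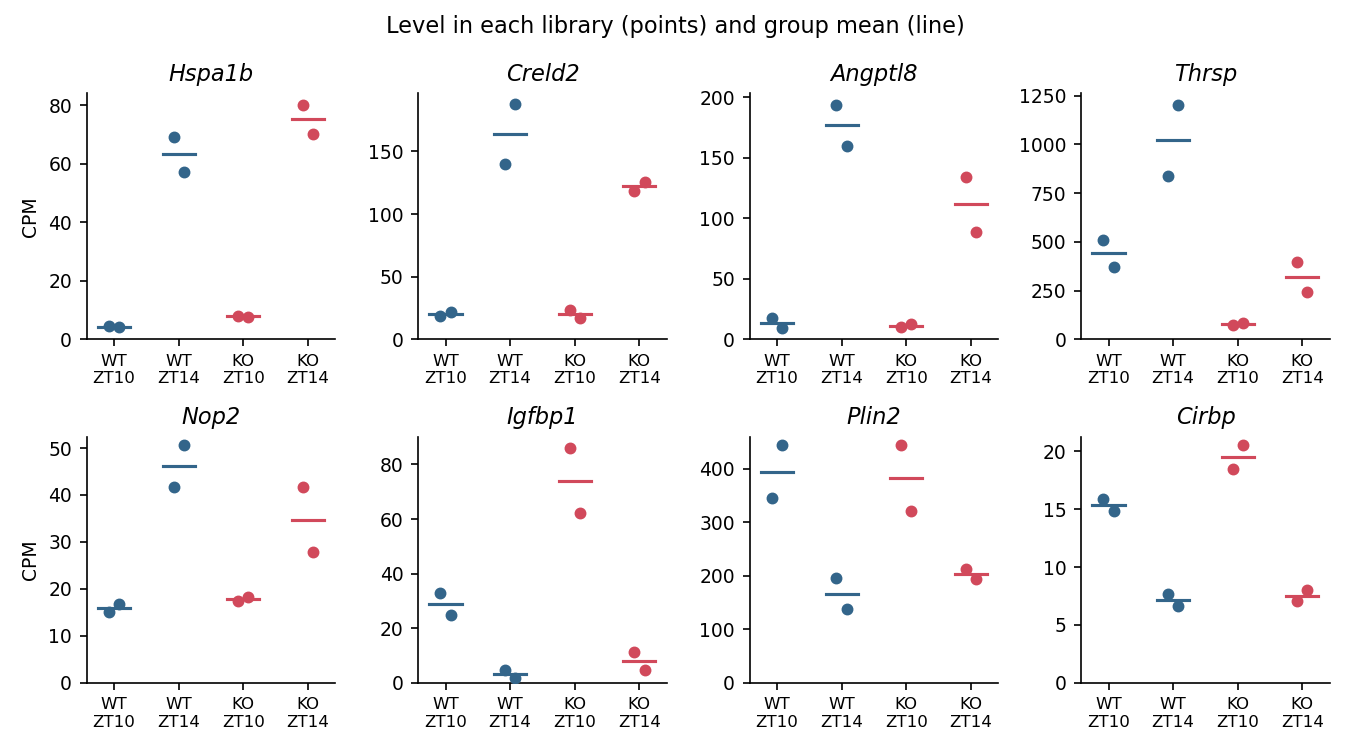
Levels of 8 genes in each of the 8 libraries (points; vertical axis, CPM from 0; horizontal axis, genotype and time), with lines at the group means. Hspa1b, Creld2, Angptl8, Thrsp and Nop2 lie higher at ZT14 in both genotypes and Igfbp1, Plin2 and Cirbp lower, without overlap between the times of a genotype.

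Ribosome production formed another rising group, while the ribosome's own protein genes did not. Of 40 ribosome biogenesis and nucleolar factors 27 rose and 0 fell (median log2 change 0.55), with 22 rising in HepWT (median 0.70) and 15 in HepKO (0.42). The HepKO count was 2 without HepKO ZT10 replicate 2, the HepWT count was 11 with HepWT replicate 1 alone, and the joint count ran from 21 to 28 over the alternatives. Nop2, an rRNA methyltransferase, moved from 15.1 and 16.7 to 41.8 and 50.6 CPM in HepWT and from 17.4 and 18.2 to 41.7 and 27.8 CPM in HepKO (log2 1.25 ± 0.12, adjusted p = 4.06e-06). Nolc1, a nucleolar scaffold, went from 16.7 to 30.2 CPM over the ZT10 libraries to 51.5 to 70.2 CPM over the ZT14 libraries (log2 1.40 ± 0.14). Nop56 of the box C/D particles, the small-subunit factor Heatr1, Tsr1 and the RNA polymerase I subunit Polr1a rose by 1.11, 0.89, 1.03 and 0.70 on the log2 scale. From ZT14 to ZT18 0 members of the list rose and 17 fell.

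Of 79 cytosolic ribosomal protein genes 0 passed in edgeR's test in either direction, with 8 at an unadjusted p below 0.05, up to 2 higher calls under the alternatives and a median log2 change of 0.08. Myc, a known activator of ribosome production, varied widely between replicates at ZT14, with 2.18 and 18.4 CPM in HepWT and 3.38 and 26.2 CPM in HepKO, and did not pass (log2 -0.26 ± 0.66, adjusted p = 0.849). Of 30 cell cycle genes 0 passed in the joint fit, with 3 at an unadjusted p below 0.05 and up to 3 calls either way under the alternatives. Within HepWT 1 of them was called lower (median -0.53), a count of 11 without a filter on low counts, and within HepKO 0 were called (median 0.04).

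The genes of the fed state moved unevenly. Angptl8, which encodes a liver-secreted inhibitor of lipoprotein lipase that rises with feeding, was among the largest rises. It read 17.7 and 9.58 CPM and then 194 and 160 CPM in HepWT, and 9.96 and 12.4 CPM and then 134 and 88.7 CPM in HepKO (11.4-fold, log2 3.51 ± 0.34, adjusted p = 4.31e-06). It stayed at 82.1 to 187 CPM in all 8 libraries of ZT18 and ZT22. G0s2, an inhibitor of the triglyceride lipase ATGL, rose by 5.42-fold from 25.8 and 32.8 to 183 and 78.1 CPM in HepWT and from 14.1 and 9.27 to 81.1 and 75.6 CPM in HepKO (log2 2.44 ± 0.43, adjusted p = 0.000663). In both genes every ZT14 library exceeded every ZT10 library of the same genotype.

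Of 23 genes of glucose uptake, storage and use, 4 rose and 0 fell (median log2 change 0.09). Pfkfb1, the enzyme that sets fructose 2,6-bisphosphate, rose by 0.69 ± 0.09. Ppp1r3b and Ppp1r3c also rose and are described with the genotypes below. In the list of fatty acid and triglyceride synthesis, 7 of 24 genes rose and 3 fell (median 0.07). The falls were 1 without HepWT ZT10 replicate 2, HepWT ZT14 replicate 2, either HepKO ZT10 library or HepKO ZT14 replicate 1. Thrsp, a lipogenic regulator known as Spot 14, rose from 509 and 372 to 838 and 1205 CPM in HepWT and from 74.8 and 85.5 to 397 and 244 CPM in HepKO (log2 1.61 ± 0.22, adjusted p = 9.66e-05). Its partner Mid1ip1 rose by 1.40 ± 0.17 and the elongase Elovl6 by 1.02 ± 0.18. Srebf1, the master regulator of the group, rose by 0.78 (adjusted p = 0.00609), a call lost with HepKO replicate 1 alone (0.49). Fasn, the fatty acid synthase, had a log2 change of 0.95 (adjusted p = 0.0132) that lost its call without HepWT ZT10 replicate 1, HepWT ZT14 replicate 1, HepKO ZT10 replicate 1 or HepKO ZT14 replicate 2 (range 0.68 to 1.14). Cholesterol genes did not share the rise: of 27, 0 rose and 2 fell, with a median of -0.17. Insig2, an ER anchor of the SREBP pathway, fell by 0.61 on the log2 scale (adjusted p = 0.000415), and Hmgcs1, an early enzyme of the pathway, had a change of -0.83 whose call was lost without HepWT ZT10 replicate 2, either HepWT ZT14 library, HepKO ZT10 replicate 1 or HepKO ZT14 replicate 1 (range -0.94 to -0.72).

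Fasting genes fell only in part. Igfbp1, which encodes an insulin-repressed binding protein of insulin-like growth factors, was the largest of the described falls. It stood at 32.9 and 24.9 CPM and then at 4.70 and 1.58 CPM in HepWT, and at 85.9 and 62.1 CPM and then at 11.4 and 4.59 CPM in HepKO (9.15-fold, log2 -3.19 ± 0.55, adjusted p = 0.000599). All ZT14 libraries were below all ZT10 libraries. Of the 21 genes of gluconeogenesis and fasting, 6 fell and 3 rose (median -0.09). The falls were 3 without HepWT ZT10 replicate 1 or HepKO ZT14 replicate 2 and 4 without HepKO ZT10 replicate 2, and the rises were 1 without HepWT ZT10 replicate 1, either HepKO ZT10 library or HepKO ZT14 replicate 1. Angptl4, another lipoprotein lipase inhibitor, fell by 1.5 ± 0.31 on the log2 scale, and the insulin receptor substrate Irs2 by 0.95 ± 0.21, a call lost with HepWT replicate 1 alone (-0.82). Slc37a4, the glucose 6-phosphate transporter of the ER, rose by 0.77 ± 0.10. The key gluconeogenic enzyme Pck1 had 3063 and 2495 CPM and then 899 and 864 CPM in HepWT, and 2030 and 1925 CPM and then 1560 and 877 CPM in HepKO. Its log2 change of -1.18 (adjusted p = 0.0264) lost the call without any 1 of 6 of the 8 libraries, all but HepWT ZT10 replicate 2 and HepKO ZT14 replicate 1 (range -1.42 to -1.0). G6pc, the last enzyme of the pathway, did not pass (-0.05, adjusted p = 0.93).

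Of 37 genes of fatty acid oxidation and ketone synthesis 6 fell and 1 rose (median -0.14), beside 7.69% of all genes lower and 9.86% higher. Within HepWT 2 fell and 1 rose (median -0.0003), and within HepKO 5 fell and 0 rose (median -0.28). Plin2, the lipid droplet coat protein, fell from 344 and 443 to 195 and 138 CPM in HepWT and from 444 and 320 to 213 and 193 CPM in HepKO (log2 -1.08 ± 0.14, adjusted p = 5.73e-05). The 1 rise of the joint fit was its relative Plin5 (0.73 ± 0.14). The nuclear receptor Ppara fell by 0.64 and Cpt1a, which admits fatty acids to mitochondria, by 0.41. Lpin2, a phosphatidic acid phosphatase, was counted with lipid synthesis and fell from 594 and 460 to 226 and 181 CPM in HepWT and from 283 and 272 to 116 and 102 CPM in HepKO (log2 -1.36 ± 0.17, adjusted p = 3.17e-05). Of 27 autophagy and lysosome genes 0 rose and 5 fell, among them Gabarapl1 (-0.77), Ulk1 (-0.62) and Atg14 (-0.52). Within HepWT 5 of the 27 fell (median -0.15) and within HepKO 0 (median -0.04). The difference of the 2 changes was called for 0 genes of this list and of fatty acid oxidation. Of 22 genes of bile acid synthesis and transport 1 rose and 6 fell, among them the racemase Amacr (-0.48) and the FGF co-receptor Klb (-0.55). These counts were 0 and 3 without HepWT ZT14 replicate 2, HepKO ZT10 replicate 2 or HepKO ZT14 replicate 1.

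**Figure D3:**
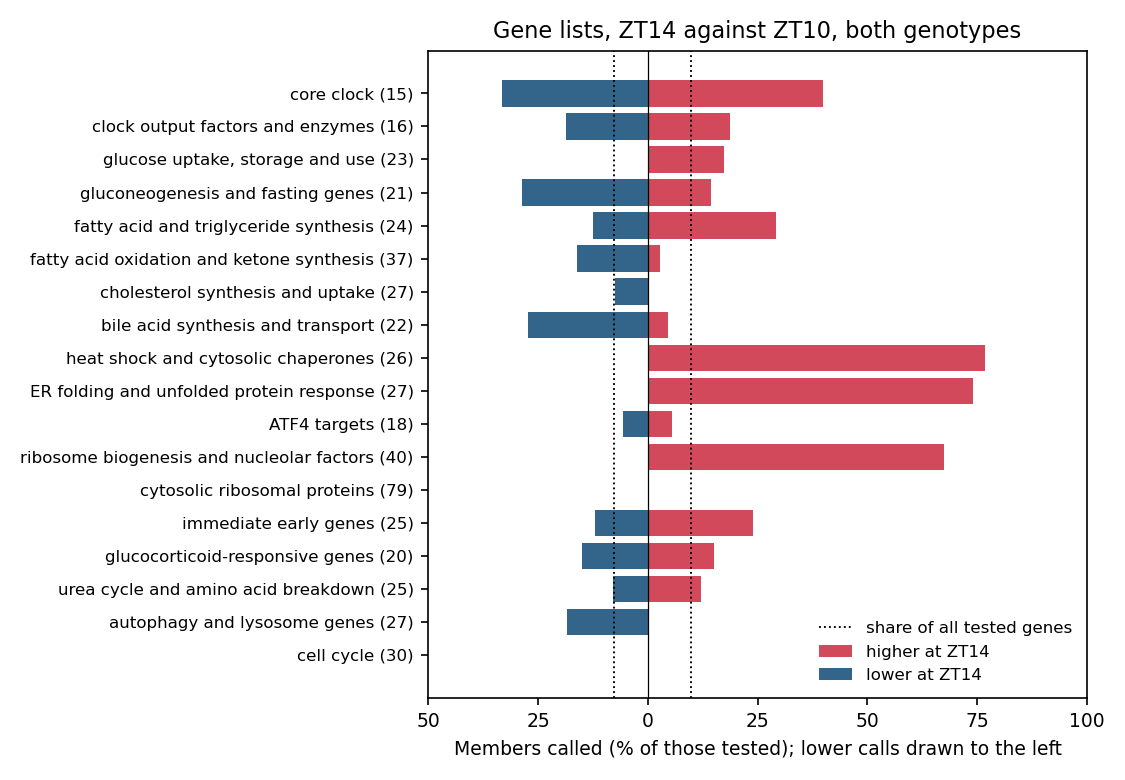
Gene lists in ZT14 against ZT10, both genotypes: share of tested members called higher and lower (horizontal axis, % of the list; vertical axis, list with the number tested). Chaperones (20 of 26), ER folding (20 of 27) and ribosome biogenesis (27 of 40) have the largest higher shares, beside 9.86% of all genes.

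Among the other large changes, the zinc finger gene Zfp9 rose from 1.41 and 2.30 to 17.5 and 17.5 CPM in HepWT and from 1.74 and 2.33 to 9.08 and 14.8 CPM in HepKO (7.45-fold), and Ccdc134 rose by 2.14 ± 0.18 on the log2 scale. Tcp11l2 had the smallest p among the falls named, from 25.1 and 25.8 to 7.5 and 7.47 CPM in HepWT and from 20.3 and 21.8 to 4.91 and 6.31 CPM in HepKO (log2 -1.84 ± 0.12, adjusted p = 1.36e-07). Bmf, a pro-apoptotic BH3-only protein, fell by 1.96 on the log2 scale, the transcription factor Klf11 by 1.76, the mitochondrial sodium-calcium exchanger Slc8b1 by 1.67, the lysosomal ubiquitin ligase Rnf152 by 1.64 and the Wnt receptor Fzd6 by 1.59. Clec2h, a C-type lectin, fell from 43.7 and 48.5 to 3.21 and 10.2 CPM in HepWT and from 3.90 and 9.65 to 0.863 and 1.84 CPM in HepKO (log2 -2.56 ± 0.42). Zc3h6 fell by 1.98. Foxq1 (log2 -1.69, adjusted p = 0.0464) lost its call without any 1 of 7 of the 8 libraries, all but HepWT ZT14 replicate 2 (range -2.26 to -1.38).

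Signalling genes gave mixed counts, to be read beside 9.86% of all genes higher and 7.69% lower. Of 25 immediate early genes 6 rose and 3 fell: Jun rose by 1.03, Ier5 by 0.94 and the stress factor Atf3 by 1.56 on the log2 scale, whereas the growth-restraining Btg1 fell by 0.83. Without HepWT ZT10 replicate 2 or HepKO ZT10 replicate 2 these counts were 3 and 2. Of 20 glucocorticoid-responsive genes 3 rose and 3 fell, with a median log2 change of 0.49 against -0.01 for all genes. The rises were 12 without a filter on low counts and 5 with the 8 libraries alone, while the falls were 3 or 4 under the alternatives. Fkbp5, a chaperone of the glucocorticoid receptor, rose from 64.9 and 39.8 to 90.2 and 211 CPM in HepWT and from 21.9 and 18.9 to 37.1 and 51.8 CPM in HepKO (log2 1.32 ± 0.22), and Ddit4, an inhibitor of mTORC1, rose by 1.39 ± 0.29. Klf9, a glucocorticoid-induced transcription factor, fell from 241 and 214 to 60.2 and 96.5 CPM in HepWT and from 169 and 153 to 135 and 67.0 CPM in HepKO (log2 -1.10 ± 0.18). Members of 1 list thus moved both ways over the same hours. The lists overlap, so this is not a result separate from the fasting genes. Igfbp1 and Angptl4, among the glucocorticoid list's falls, were also counted with the fasting genes. So was Gadd45b, among its rises (log2 1.46 ± 0.43).

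The core clock was tested as 15 genes, of which 6 rose and 5 fell in the joint fit, with 5 rising and 4 falling in HepWT and 2 of each in HepKO. The joint counts were 2 and 4 in an additive fit on the 8 libraries, and 5 and 3 without HepWT ZT10 replicate 2, HepWT ZT14 replicate 2 or either HepKO ZT10 library. Some of them changed in both genotypes. Per2, a repressor that also responds to temperature and hormones, rose from 29.7 and 35.5 to 94.7 and 85.6 CPM in HepWT and from 22.2 and 26 to 74.6 and 75.4 CPM in HepKO (log2 1.55 ± 0.14, adjusted p = 2.45e-06). The changes were 1.47 in HepWT and 1.64 in HepKO, a difference of 0.17 ± 0.27 (adjusted p = 0.942). The REV-ERB gene Nr1d2 fell from 179 and 177 to 78.9 and 71.6 CPM in HepWT and from 34.6 and 35.5 to 16.7 and 21.3 CPM in HepKO (log2 -1.07 ± 0.11). Nr1d1, the other REV-ERB, fell by 1.47 ± 0.25 but overlaps Thra on the opposite strand. Dbp, a clock-driven activator that overlaps Sphk2, fell from 127 and 148 to 42.1 and 37.4 CPM in HepWT and, from an already low level, from 18.1 and 19.4 to 6.26 and 6.37 CPM in HepKO (log2 -1.68 ± 0.14, adjusted p = 8.01e-07). In HepKO the levels of Nr1d1, Nr1d2 and Dbp were below those of HepWT at both times. The change in HepKO minus the change in HepWT was 0.35 ± 0.23 for Nr1d2, 0.20 ± 0.51 for Nr1d1 and 0.21 ± 0.27 for Dbp, with adjusted p of 0.796, 0.965 and 0.913.

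Others were called in HepWT and not in HepKO. Arntl changed by log2 1.54 ± 0.23 in HepWT (adjusted p = 0.000343) and by 0.01 ± 0.18 in HepKO. Cry1, a repressor of the clock, went from 9.86 and 9.28 to 22.6 and 20.4 CPM in HepWT (log2 1.17 ± 0.14, adjusted p = 9.44e-05) and from 58.8 and 56.7 to 54.7 and 70.9 CPM in HepKO (0.12 ± 0.13). The tested difference of the changes was -1.54 ± 0.29 for Arntl and -1.05 ± 0.20 for Cry1, each with an adjusted p of 0.0801 in edgeR and 0.00222 in DESeq2. Rora changed by -0.86 ± 0.12 in HepWT and -0.26 ± 0.12 in HepKO, with a difference of 0.60 ± 0.17 (adjusted p = 0.403). Its HepKO libraries also stood lower at ZT14, with 149.7 and 152.2 and then 111 and 141.1 CPM. For Cry1 the HepKO libraries at both times lay above the HepWT libraries, so that the smaller change began from a higher level.

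The activating element of this clock, the E-box with the letters CACGTG, was found in 4 of 12 core clock genes that had a window (33.3%). The shares, counted by gene, were 11.3% of all genes with a window, 13.3% of the rising and 12% of the falling genes. The stretch of Cry1 is shown because its level differs between the genotypes at both times. It lies on the minus strand of GRCm38.p6 at chr10:85185074-85185149, with the element, in capitals, 60 to 55 bases before the start.
Cry1: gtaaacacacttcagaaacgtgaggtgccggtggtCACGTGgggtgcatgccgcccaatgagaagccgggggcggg

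The remaining clock genes were less settled. Bhlhe40 rose by 0.63 ± 0.15 in the joint fit, a call lost with HepWT replicate 1 alone (0.61). Calls lost without single libraries were those of Clock (log2 0.25; lost without any of 6 libraries, all but HepWT ZT14 replicate 1 and HepKO ZT14 replicate 2; range 0.17 to 0.33), Per3 (-0.38; lost without any of 5, all but both replicate 1 libraries of HepWT and HepKO ZT14 replicate 2; range -0.48 to -0.26) and Bhlhe41 (-0.92; lost without any of 7, all but HepWT ZT14 replicate 1; range -1.08 to -0.79). Npas2, Per1, Cry2 and Ciart did not pass, and Npas2 held 0.109 to 0.247 CPM in HepWT against 14.6 to 28.5 CPM in HepKO. Of 16 clock output genes 3 rose and 3 fell in the joint fit, with 4 and 5 in HepWT and 0 and 1 in HepKO. Nampt, the enzyme of NAD salvage, went from 124 and 146 to 211 and 249 CPM in HepWT (0.77 ± 0.11, adjusted p = 0.000229) and from 53.3 and 60.7 to 68.8 and 60.2 CPM in HepKO (0.18 ± 0.11), and the difference of -0.59 ± 0.15 had an adjusted p of 0.356. The call of Tef (-0.31) was lost without HepWT ZT10 replicate 1, HepWT ZT14 replicate 2, HepKO ZT10 replicate 1 or HepKO ZT14 replicate 1 (range -0.36 to -0.26). That of the elongase Elovl3 (-0.82) was lost without any 1 of the 8 libraries (range -0.90 to -0.74), and that of Lpin1 (0.83) without any of 6, all but HepWT ZT14 replicate 1 and HepKO ZT14 replicate 2 (range 0.58 to 1.01).

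**Figure D4:**
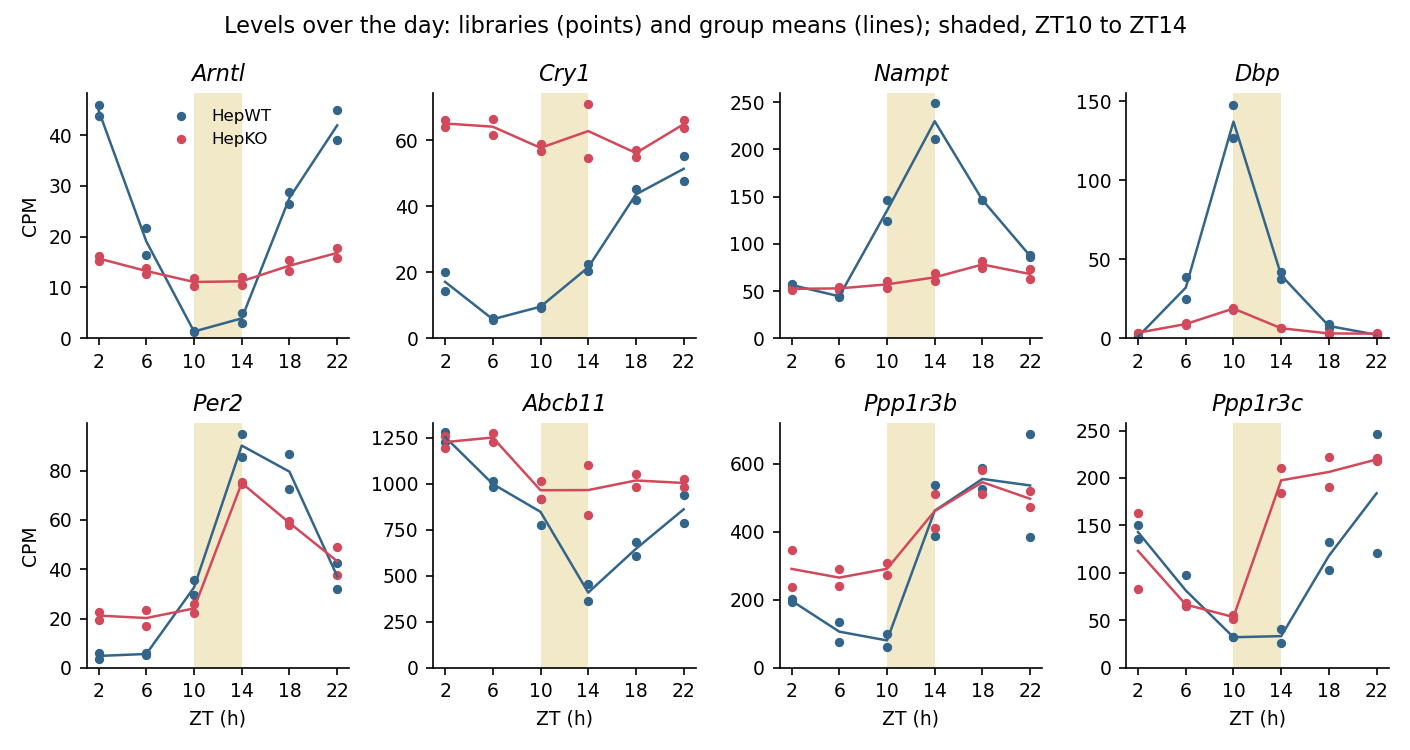
Levels of 8 genes over the day in HepWT and HepKO (points, libraries; lines, group means; vertical axis, CPM from 0; horizontal axis, ZT in hours; ZT10 to ZT14 shaded). Per2 and Dbp change over the shaded hours in both genotypes, whereas Arntl, Cry1, Nampt and Abcb11 change in HepWT, and Ppp1r3c rises there in HepKO.

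Comparison of the genotypes found 412 genes called higher in both, which is 37.5% of the 1099 genes higher in HepWT (6.36% of tested genes) and 68.4% of the 602 higher in HepKO (3.48%). For lower genes the 239 shared calls were 27.7% of 864 in HepWT (5% of tested genes) and 63.4% of 377 in HepKO (2.18%). No gene was called in opposite directions. Across 17275 genes the 2 changes had Pearson's r of 0.354 and Spearman's rho of 0.395, a description over genes, which are not independent replicates.

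The difference of the 2 changes was called for 0 genes (0% higher and 0% lower) by edgeR's test. At an unadjusted p below 0.05, 669 genes had a higher and 512 a lower change in HepKO, DESeq2 called 40 genes, limma-voom 0, and edgeR without a filter on low counts 341. Leaving out single libraries gave 0 to 5 calls. A call in 1 genotype alone therefore does not show that the genotypes differed.

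**Figure D5:**
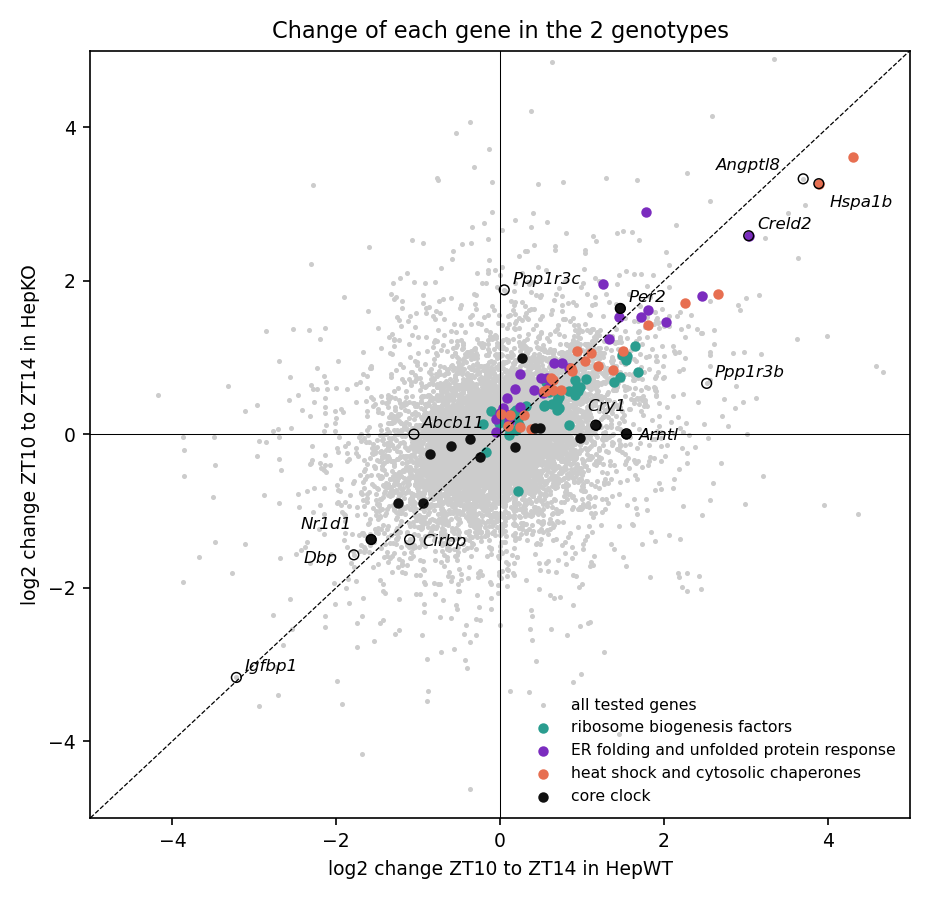
Change from ZT10 to ZT14 of each tested gene in HepWT (horizontal axis, log2) and HepKO (vertical axis, log2), with 13 genes named; 16 genes lie outside the plotted range. Hspa1b, Creld2, Angptl8, Per2, Igfbp1, Dbp and Cirbp lie near the diagonal, while Arntl, Cry1 and Abcb11 lie near a HepKO change of 0, Ppp1r3b at 2.52 in HepWT and 0.66 in HepKO, and Ppp1r3c near a HepWT change of 0.

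The genes with the smallest p for the difference were looked at after their values were seen. Tbcel fell from 117 and 132 to 50.9 and 46.1 CPM in HepWT, while its HepKO libraries read 70.3 and 92.7 and then 66.4 and 75.2 CPM (difference of the changes 1.16 ± 0.17, adjusted p = 0.0683). Rab17, a small GTPase of epithelial membrane traffic, had a difference of 1.06 ± 0.18. Slc45a3 rose from 8.05 and 8.25 to 20.7 and 23.1 CPM in HepWT and gave 50.3 and 41.5 and then 41.3 and 39.3 CPM in HepKO (-1.62 ± 0.27). Ppp1r10, a nuclear targeting subunit of protein phosphatase 1, rose in HepWT from 23.6 and 25.7 to 50.9 and 55.9 CPM and read 74.3 and 92.4 and then 50.2 and 56.3 CPM in HepKO (-1.76 ± 0.30). The adjusted p of the last 3 was 0.0683 too in edgeR's test. DESeq2 called all 4, with adjusted p of 3.5e-05 for Tbcel, 5.16e-05 for Ppp1r10, 6.11e-05 for Slc45a3 and 0.0039 for Rab17. For Ppp1r10 the genotypes were apart at ZT10 and overlapped at ZT14.

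Some liver function genes also had unlike fitted changes in the 2 genotypes, but none of the differences given here passed edgeR's test. Abcb11, the canalicular bile salt export pump, fell from 778 and 918 to 365 and 453 CPM in HepWT (log2 -1.05 ± 0.14, adjusted p = 0.000157) and held 918 and 1014 and then 1104 and 830 CPM in HepKO (0.00 ± 0.14). The difference was 1.05 ± 0.20 (adjusted p = 0.0801; 0.000281 in DESeq2). Ppp1r3b, which targets protein phosphatase 1 to glycogen and so favours glycogen synthesis, rose from 100 and 60.7 to 536 and 386 CPM in HepWT (2.52 ± 0.31, adjusted p = 8.48e-05). In HepKO Ppp1r3b began higher, with 308 and 274 and then 509 and 412 CPM (0.66 ± 0.29), and the difference was -1.86 ± 0.41 (adjusted p = 0.195; 0.0293 in DESeq2). Of its relative Ppp1r3c, HepWT libraries read 32.2 and 32.2 and then 40.9 and 25.9 CPM (0.05 ± 0.31), and HepKO libraries rose from 56.1 and 50.9 to 184 and 211 CPM (1.88 ± 0.32, adjusted p = 0.00237). The difference was 1.83 ± 0.44 (adjusted p = 0.274, and not called by DESeq2 either), and at ZT18 HepWT stood at 133 and 103 CPM. Neither difference passed edgeR's test, and both subunits were higher at ZT14 than at ZT10 in HepKO without overlap.

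Few markers of other cells passed the test in the joint fit. Kupffer cell and macrophage markers (13, with 382.2 to 568 CPM summed) had 0 calls by edgeR, 1 at an unadjusted p below 0.05 and up to 1 under the alternatives. Of 12 hepatocyte markers 1 rose, the transcription factor Hnf4a (log2 0.44), a call lost with HepWT replicate 1 alone (0.36), and of 11 endothelial markers 1 fell, the VEGF receptor Kdr (-0.31 ± 0.05). The progenitor and bile duct factor Sox9 rose by 1.38 ± 0.25, 1 of 5 cholangiocyte markers tested. B and plasma cell markers (2 of 6 lower) summed to 7.938 and 12.78 CPM in HepWT and 23.79 and 14.45 CPM in HepKO at ZT10, against 6.469 and 5.444 CPM and 4.989 and 6.538 CPM at ZT14. Of 12 stellate cell and fibroblast markers 1 passed as lower, Pdgfrb (-0.40), a call lost without any of 7 libraries, all but HepWT ZT14 replicate 2 (range -0.46 to -0.34). Markers of T and NK cells (8 tested), neutrophils (3), erythroid cells (5) and adipocytes (4) had 0 calls by edgeR in the joint fit, with 2, 1, 0 and 0 at an unadjusted p below 0.05 and at most 1 call under the alternatives. Within HepWT 1 neutrophil marker was called lower. Without a filter on low counts 4 erythroid markers were called lower within HepWT, 4 higher within HepKO, and 5 B and plasma cell markers lower within HepKO. In bulk liver fewer cells of a type and less RNA per cell cannot be told apart. The part of these cells in the results above was not tested.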

How the data were processed

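Liver total RNA was sequenced after ribosomal RNA depletion with a stranded kit, per the labels' protocols. The authors deposited counts, whole numbers per gene and library without normalization. Reads were aligned with STAR 2.4.0i to mm10, per the submitters' processing notes. The counting tool, annotation and strand setting are, in the sources used here, not given: genes that overlap on opposite strands (Nr1d1 with Thra, Dbp with Sphk2) and near-identical copies are uncertain. The names of 5 HepKO replicate 2 columns, all but that of ZT2, end in a suffix with no explanation in the labels, and all were used. These 5 libraries were also the shallowest of the 24, with 12997689 to 16910415 counts against 23583035 to 30677807 in the others. HepKO ZT2 replicate 2, without the suffix, held 29769983 counts. Whether the 5 were made or sequenced apart was not tested.

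All 24 libraries (12 groups of 2) were fitted together with 12 residual degrees of freedom in edgeR 4.0.16 (R 4.3.3, limma 3.58.1): TMM scaling, filterByExpr (minimum count 10, minimum total 15), which left 17275 of 35304 genes, and the quasi-likelihood F test, two-sided, Benjamini-Hochberg adjusted p below 0.05. The contrasts were ZT14 minus ZT10 averaged over the genotypes, within each genotype, and the difference of the 2 changes. Where a library was left out, the spread of the remaining one was taken from the other groups. Alternatives were DESeq2 1.42.0, its size factors in edgeR, limma-voom, other filters, a threshold of 0.01, the 8 libraries alone, an additive fit, replicate blocks, and single replicates or libraries left out. The scripts were tested on simulated data. Gene positions are from GENCODE M21 (17251 of the tested genes).

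Genes were named by a rule: the largest changes (mean log2 CPM at least 1, groups not overlapping), the clock lists, and up to 4 genes of each other list by smallest p. Hspa5, Hspa8, Manf, Ddit3, Hsp90b1, Polr1a, Srebf1, Fasn, Cpt1a, Pck1, the genes of smallest p for the difference and all members named as not passing were added after their values were seen. The members and lists were chosen with earlier results of these data known. The labels mention no molecular identifiers, so reads copied by PCR are not independent. Some genes are not reported here. Raw reads were not analysed here.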

Additional observations from a re-analysis of the deposited data

How the results depend on the processing

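The joint count of 3032 changed genes was 1724 at an adjusted p below 0.01 and 1646 with HepWT replicate 1 alone, and 2188 to 2948 with single libraries left out. Within HepWT the 1963 genes became 1182 with the 8 libraries alone, 879 at 0.01, 327 with HepWT replicate 1 alone and 790 to 2123 with a library left out. Within HepKO the 979 genes became 450, 362 and, with HepKO replicate 1 alone, 282, and 222 to 998 with a library left out. The difference between the changes, 0 genes, was 40 with DESeq2 and 341 without a filter on low counts. It was 2 with HepKO replicate 1 alone and 0 to 5 with a library left out. The filter kept a gene that reached the minimum count, scaled for depth, in at least 2 libraries, the size of a group. All 341 genes called without the filter were also tested in the main fit, so 0 of them were genes that the filter had removed. The cause of the shifts in these counts was not tested. A replicate block across the 24 libraries gave 3058, 1946, 923 and 0 genes, and a replicate block nested in genotype 3180, 2091, 959 and 0, within 1.5 times of the counts above. Both blocks put HepKO ZT2 replicate 2 together with the shallower HepKO replicate 2 libraries. The labels do not say that a number marks a shared batch, and deviations of same-numbered libraries from their group means correlated over 0.1 in only part of the pairs of groups. Over the 15 pairs within HepWT r was -0.0104 to 0.299 (11 over 0.1; 0.184 for ZT10 with ZT14), over the 15 within HepKO -0.138 to 0.0792, and over the 36 between genotypes -0.109 to 0.145, so the numbers were not taken as a pairing. DESeq2 and limma-voom gave 3054 and 3027 genes in the joint fit. No called change of a named gene changed its sign under any of these settings. With 2 libraries a group, calls within 1 genotype rest on a spread estimated over all groups. The HepKO replicate 2 libraries of ZT10 and ZT14 have the lowest depth of the 8.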

Other observations

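Gene families outside the lists were counted after the results had been seen, so these counts are descriptions, to be read beside the 9.86% of all tested genes that rose and the 7.69% that fell. A family was taken by the letters of its gene symbols, so it can hold genes that are not subunits of the complex named. Of 345 tested zinc finger genes named Zfp with a number, 80 rose and 17 fell from ZT10 to ZT14 (median log2 change 0.18, against -0.01 for all genes), with 66 rising in HepWT and 24 in HepKO. Zfp324 went from 8.59 and 9.32 to 22.2 and 30.0 CPM in HepWT and from 8.75 and 11.9 to 20.9 and 28.3 CPM in HepKO (log2 1.40 ± 0.14, adjusted p = 4.76e-06). Of 21 importins and exportins, which carry proteins and RNA through the nuclear pore, 12 rose and 2 fell, among them the exportin Xpo1 (0.54 ± 0.08) and the importin Kpnb1 (0.32 ± 0.06). Of 23 genes with symbols of the ER translocon, signal peptidase and oligosaccharyltransferase 15 rose and 0 fell, among them Ostc (0.68 ± 0.09) and Sec61a1 (0.40 ± 0.07). Of 7 subunits of the CCT chaperonin, which folds actin and tubulin, 6 rose and 0 fell (Cct3, 0.43 ± 0.06).

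RNA polymerase I and III subunits gave 7 rises of 18 and RNA polymerase II subunits 2 of 13. Mitochondrial ribosomal proteins gave 15 rises and 1 fall of 77, and translation initiation factors 16 and 1 of 54. Genes with proteasome symbols gave 2 rises and 3 falls of 49, those with respiratory chain symbols 4 rises of 84, and cytochrome P450 genes 2 rises and 7 falls of 74. Called genes that are not subunits were Eif2ak3 among the initiation factors, Psme3ip1 in the proteasome family, and Ndufaf4 and Ndufaf5 in the respiratory chain family.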
